A study of Rattus norvegicus with 6 samples.

Results

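Expression of 10 genes of blood vessel growth factors was followed in rat bone marrow stromal cells. They were the VEGF family ligands Vegfa, Vegfb, Vegfc and Pgf, the angiopoietins Angpt1 and Angpt2, the angiopoietin-like gene Angptl2, the hepatocyte growth factor gene Hgf, its receptor gene Met, and the PDGF ligand Pdgfa. All probes whose annotated name was one of these symbols were taken. That gave 10 genes, 19 probes and 21 spots, of 34912 names and 45598 probes on the array. Total RNA was labelled with Cy3 and hybridised to 6 one-colour Agilent arrays. Cells isolated from tibia marrow of rats had grown for 7 days on titanium whose surface had been modified with tantalum (Ta, n = 3) or on simple titanium without that modification (Ti, n = 3). Both groups were otherwise described alike, each group came from independent experiments, and strain, age and the number of animals were not given in the sources used here. The comparison asks how cells on the modified surface differ from cells on plain titanium.

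VEGF ligands signal through the receptor tyrosine kinases Flt1, Kdr and Flt4, with neuropilins as co-receptors, and drive the sprouting of blood and lymph vessels. Angiopoietin 1, secreted by cells around vessels and by marrow stroma, activates the endothelial receptor Tek and stabilises vessels, whereas angiopoietin 2 can oppose it. HGF is made mainly by mesenchymal cells as an inactive precursor, is cleaved by serine proteases, and acts through the receptor Met on migration, survival and growth of epithelial and endothelial cells. Marrow stromal cells are known as a source of several of these factors.

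Each value is a log2 scaled intensity: the scanner's processed signal after each array was brought to a common 75th percentile. Probes differ in brightness for reasons unrelated to RNA amount, so levels are set side by side only within a probe. The probes below are shown because the results turn on what they read: 1 called probe each of Angpt1 and Hgf, the second Met probe that was dim on Ti, the 2 Vegfa probes whose groups did not overlap, the Vegfb probe that shares a run of bases with 1 of them, and the 1 probe behind Angpt2. All are 60 bases long and have at least 1 forward reading frame without a stop codon. Capitals mark a run of 11 bases found in Vegfa A_64_P099891 and in Vegfb A_44_P159040, and positions are those of rat build rn4 as listed in the files, with the exons of that build not annotated here.
Angpt1 A_44_P1058692: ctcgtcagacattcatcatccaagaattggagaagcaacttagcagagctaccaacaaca
Hgf A_44_P367525: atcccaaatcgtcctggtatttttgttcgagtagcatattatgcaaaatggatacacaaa
Met A_44_P318553: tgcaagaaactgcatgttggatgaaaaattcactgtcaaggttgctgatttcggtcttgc
Vegfa A_64_P099891: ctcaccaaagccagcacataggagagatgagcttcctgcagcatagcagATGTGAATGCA
Vegfa A_44_P1164111: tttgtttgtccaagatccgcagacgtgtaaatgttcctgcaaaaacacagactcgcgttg
Vegfb A_44_P159040: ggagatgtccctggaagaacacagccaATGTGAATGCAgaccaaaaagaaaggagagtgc
Angpt2 A_43_P15980: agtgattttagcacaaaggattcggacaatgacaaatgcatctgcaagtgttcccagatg

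The Hgf probe lies at chr4:14864538-14864597 on the minus strand and the Angpt2 probe at chr16:75939239-75939298 on the plus strand. The Vegfa probes lie at chr9:10528551-10528610 and chr9:10531934-10531993 on the plus strand. The listed ends of the Vegfb probe (chr1:209659244-209659672, minus strand) and of the Met probe (chr4:43202449-43203665, plus strand) are 429 and 1217 bases apart, so these 60 bases are not contiguous in the genome. For the Angpt1 probe on chromosome 7 (minus strand) the files list a stretch of only 6 bases.

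On each array 58717 spots were not controls. The scanner software marked 62.7% to 65.9% of these as well above background and 0 as saturated. Of 19570 genes tested with limma, 812 passed an adjusted p of 0.05 (4.15%), 522 of them higher and 290 lower on Ta. Median scaling gave 416 higher and 362 lower. Ta replicate 1 had a Pearson correlation of 0.992 with Ta replicate 2, 0.987 with Ta replicate 3 and 0.992 with Ti replicate 2, across genes, which are not independent replicates. Ti replicate 2 had one of 0.991 with Ti replicate 1 and 0.992 with Ti replicate 3. Limma called 3209 genes without Ta replicate 1, 1561 without Ti replicate 2, and 0 without any 1 of the other 4 arrays (3811 to 4465 at an unadjusted p under 0.05).

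Among the members, the angiopoietin gene Angpt1 and the growth factor gene Hgf rose on Ta, by 2.52-fold and 2.58-fold. Of the 9 members tested, 2 rose (2.67% of all tested genes did), 0 fell (1.48%) and 7 did not pass. Vegfc and Met were above their Ti values on every Ta array without passing the test, and Pgf and Pdgfa below them. Vegfa, Vegfb and Angptl2 overlapped between the surfaces, and Angpt2 did not stand well above background on any of the arrays. Groups did not overlap in 6 of the 9, against 35.9% of all tested genes (4 above, against 19.5%, and 2 below, against 16.4%), and 7 of the 9 had an unadjusted p under 0.05, against 30.0% of all genes. The median log2 difference of the 9 was 0.38, and that of all genes 0.026. The members were chosen with earlier results of these data known, so these comparisons with all genes are descriptions and not tests. In 5 of the 6 without overlap Ta replicate 1 was the Ta array nearest the Ti mean, and in 5 of the 6 Ti replicate 2 was the Ti array nearest the Ta mean. Limma called 5 of the 9 without Ta replicate 1, where it called 3209 of all 19570 genes. It called 2 without Ti replicate 2 (1561 of all genes) and 0 without any 1 of the other arrays (0 of all genes).

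**Figure D1:**
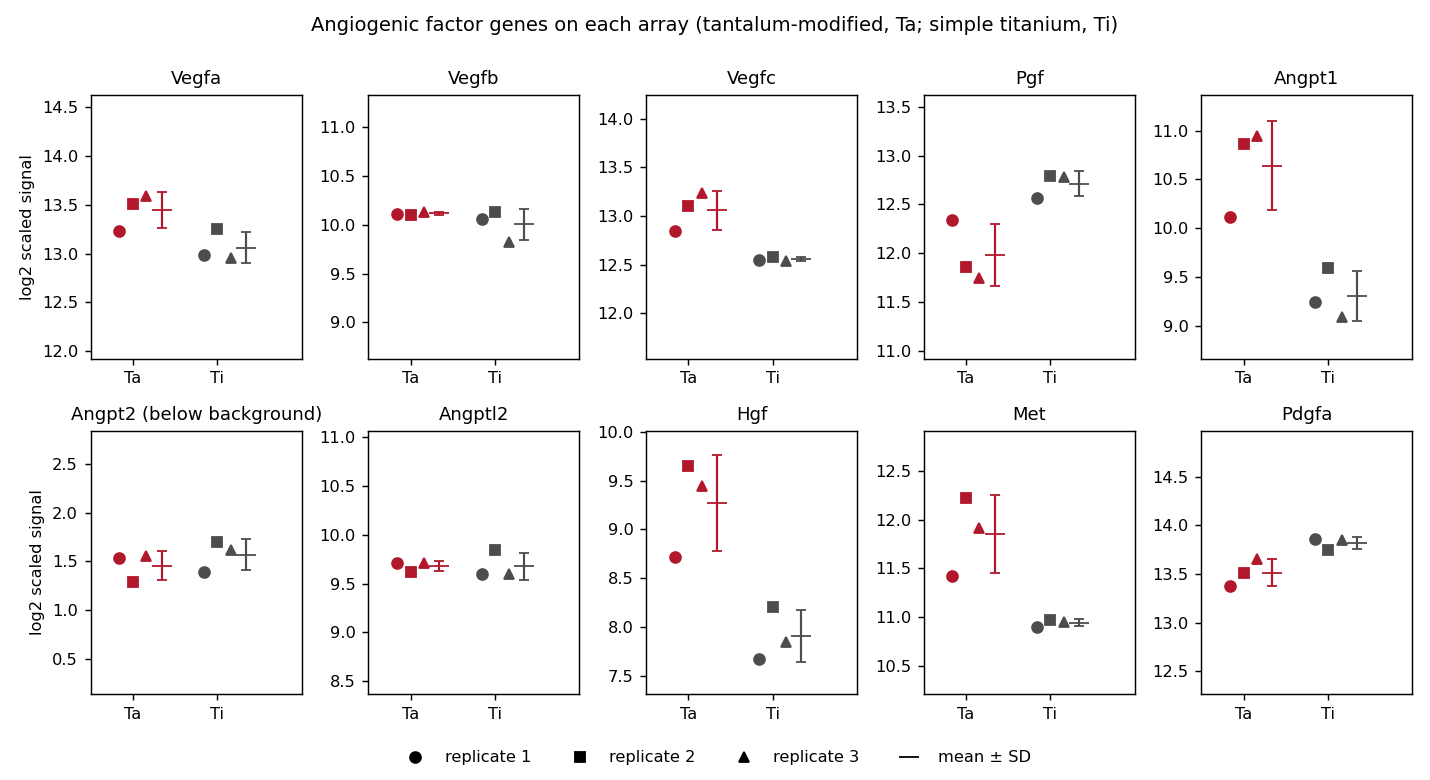
Log2 scaled signal (vertical axis, each panel spanning its own levels) of the brightest probe of each of the 10 genes on the 3 Ta and the 3 Ti arrays, with symbols for replicates and bars for the mean ± SD. Angpt1 and Hgf stand higher on all 3 Ta arrays, with replicate 1 the lowest of them (10.11 and 8.72), Pgf and Pdgfa stand lower, and Angpt2 lies near 1.5 on every array, not well above background.

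Angpt1, which activates Tek, measured 10.11, 10.86 and 10.94 on the Ta arrays, against 9.24, 9.59 and 9.08 on the Ti arrays. All Ta values lay above all Ti values, and the lowest Ta array was replicate 1. The log2 difference was 1.33 ± 0.25 (SE, n = 3 per group, limma adjusted p = 0.0481), and 97.0% of tested genes differed by less in size. The other Angpt1 probes moved the same way. The probe A_44_P1058692, printed above, read 9.17, 9.99 and 10.28 on Ta, against 7.73, 8.50 and 7.56 on Ti, a difference of 1.88 ± 0.36. The dim probe A_44_P1107548 read 6.22, 6.48 and 6.33 on Ta, against 4.53, 5.48 and 4.72 on Ti, a difference of 1.44 ± 0.25. Both passed in the fit by probe (adjusted p = 0.0471 and 0.0449, limma), as did the brightest probe (0.0471). For all 3 probes the Ti array nearest to Ta was replicate 2. With normexp background correction the dim probe differed by only 0.61 and still passed (adjusted p = 0.0187, limma by probe). The call by gene was lost with no filter on dim probes (adjusted p = 0.127, limma, at the same difference) and when replicate 2 (adjusted p = 0.173, limma) or 3 (0.139) of Ta or replicate 1 (0.143) or 3 (0.169) of Ti was left out, while the difference stayed between 1.18 and 1.59.

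Angpt2, whose product can act against angiopoietin 1, has a single probe. It read 1.54, 1.29 and 1.55 on the Ta arrays, against 1.39, 1.69 and 1.62 on the Ti arrays. It was not well above background on any of the 6 arrays, so it was not tested and no fold is given. Angptl2, a secreted relative of the angiopoietins that does not bind Tek, read 9.71, 9.62 and 9.72 on Ta, against 9.60, 9.84 and 9.60 on Ti. The groups overlapped, and the difference of 0.0022 ± 0.098 had a 95% interval between -0.24 and 0.24 (limma adjusted p = 0.989).

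Hgf measured 8.72, 9.65 and 9.45 on the Ta arrays, against 7.67, 8.20 and 7.85 on the Ti arrays. Every Ta array lay above every Ti array, with Ta replicate 1 lowest and Ti replicate 2 highest of their groups. The log2 difference was 1.37 ± 0.27 (SE, n = 3 per group, limma adjusted p = 0.0493). The probe A_44_P367525, printed above, read 8.32, 9.06 and 9.22 on Ta, against 7.51, 7.55 and 6.91 on Ti. Its difference was 1.54 ± 0.29 (adjusted p = 0.0463 in limma by probe). Hgf no longer passed with quantile scaling (adjusted p = 0.0507, limma), with median scaling (0.0508), with no filter on dim probes (0.132), or without replicate 2 (0.172) or 3 (0.149) of Ta or replicate 1 (0.146) or 3 (0.173) of Ti, with differences of 1.18 to 1.64 when single arrays were left out. Slide rows are not labelled and were inferred here from the vertical positions of the spots. Within slide row 1, which by this held the 3 Ta arrays and Ti replicate 1, the differences of Angpt1 and Hgf were 1.40 and 1.60. With slide row as a block the limma adjusted p values were 0.206 and 0.198. Ti replicates 2 and 3, alone in row 2, do not inform that difference, although they count toward its variance.

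**Figure D2:**
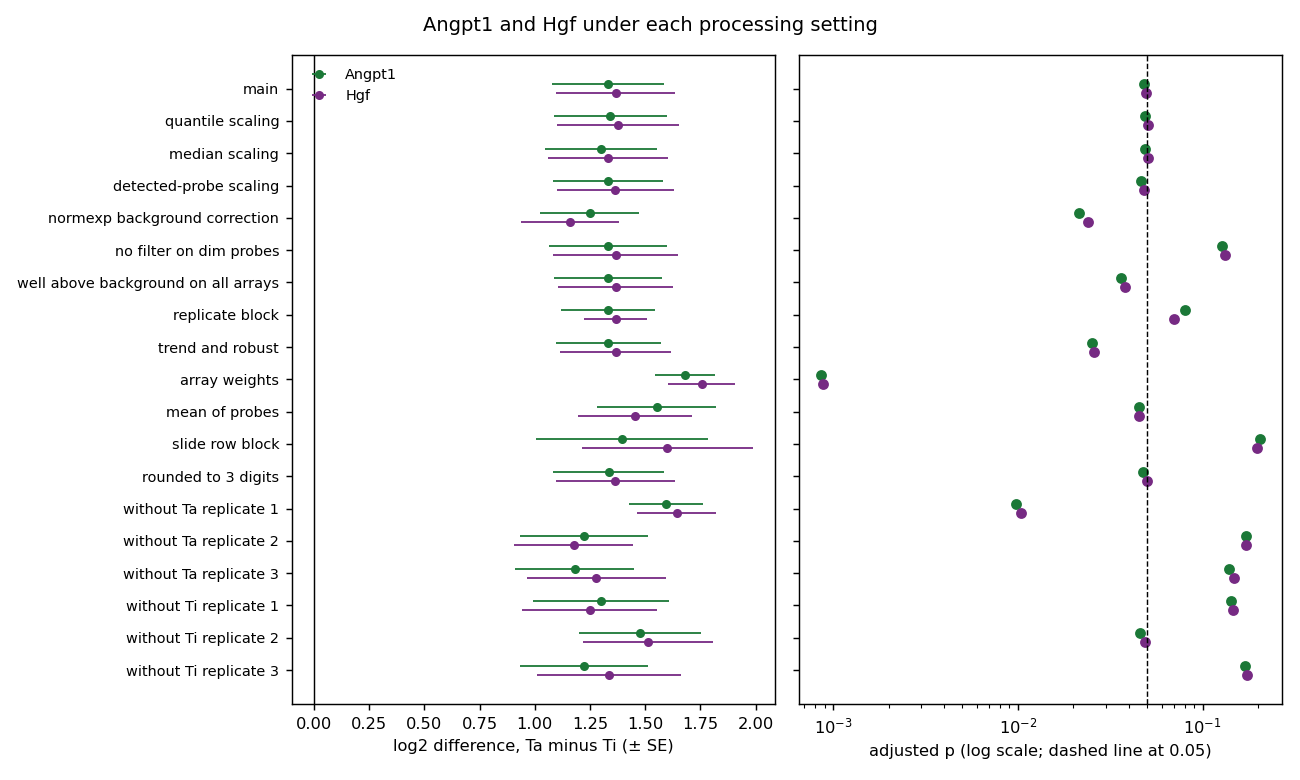
Log2 difference, Ta minus Ti, with its SE (left) and limma adjusted p on a log axis (right) of Angpt1 and Hgf under each processing setting, with a dashed line at 0.05. All differences are above 1.1, and the adjusted p values lie close to the line with all arrays and the usual scalings, and at 0.139 or higher when replicate 2 or 3 of Ta or replicate 1 or 3 of Ti is left out.

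Met, the receptor tyrosine kinase for HGF, measured 11.43, 12.22 and 11.91 on Ta, against 10.90, 10.97 and 10.95 on Ti. The Ta arrays were all higher and more spread (SD 0.40) than the Ti arrays (SD 0.037). The difference was 0.91 ± 0.20, a 1.88-fold higher mean, and did not pass (limma adjusted p = 0.0582). Without Ta replicate 1 it was 1.12 and passed (adjusted p = 0.00975, limma), where 3209 of 19570 genes passed. It also passed among genes well above background on all arrays (0.0447), and the mean of both probes gave 1.37 (0.0721). With any other single array left out it did not pass (limma adjusted p up to 0.182). The probe A_44_P318553, printed above, read 4.35, 4.22 and 4.02 on Ta, against 1.43, 3.97 and 1.67 on Ti. All 3 Ti arrays failed to mark it as well above background, so it passed the filter only through Ta and no p value is read from it. Its measured difference was 1.84, and 0.34 with normexp background correction. Each Ti value was also raised, where it was lower, to the dimmest probe that its array still marked as well above background. The Ta mean was then 1.43-fold that of Ti, which is an estimate and not a lower bound. Duplicate spots of the brighter Met probe differed by a median of 0.034 on the log2 scale within an array, far below the spread between Ta arrays.

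Around HGF, 0 of 7 tested genes of its activation passed the test. Plau, the urokinase protease that can cleave the HGF precursor, read 7.93, 6.89 and 6.66 on Ta, against 9.22, 7.95 and 8.77 on Ti. Its groups did not overlap, and the difference of -1.49 ± 0.44 did not pass (limma adjusted p = 0.0891). St14, which encodes the HGF-activating protease matriptase, differed by -0.47 ± 0.17 (0.134). Of 12 tested adaptors, paralogs and signalling genes of Met, 0 passed. Mst1, the HGF-like ligand of the receptor Mst1r, differed by 1.13 ± 0.27 (adjusted p = 0.0647, limma) and Pik3r1, a regulatory subunit of PI3 kinase, by 0.48 ± 0.11 (0.0621). These 2 were above Ti on every Ta array.

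Vegfa, the main endothelial growth factor of the family, measured 13.23, 13.51 and 13.59 on Ta with its brightest probe, against 12.98, 13.25 and 12.96 on Ti. Ti replicate 2 lay just above Ta replicate 1. The difference was 0.38 ± 0.13 and did not pass (limma adjusted p = 0.121). The remaining Vegfa probes, both printed above, did not overlap between groups. A_44_P1164111 read 8.68, 9.13 and 9.23 on Ta, against 8.13, 8.55 and 8.01 on Ti (difference 0.78 ± 0.20, adjusted p = 0.0726 in limma by probe). A_64_P099891 read 12.40, 12.73 and 12.73 on Ta, against 11.23, 12.36 and 11.29 on Ti (difference 0.99 ± 0.31, adjusted p = 0.102). On this probe Ti replicate 2 stood close to the Ta arrays and apart from its own group. The 3 probes thus had differences between 0.38 and 0.99, all above 0 and none past the threshold, and their mean gave 0.72 (limma adjusted p = 0.0881). Duplicate spots of the brightest probe differed by at most 0.15 within an array.

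Vegfb, a ligand of Flt1, read 10.12, 10.10 and 10.14 on Ta, against 10.06, 10.13 and 9.82 on Ti. The groups overlapped, with a difference of 0.11 ± 0.10, a 95% interval between -0.13 and 0.36 and an adjusted p of 0.487 (limma). Its dim probe gave 0.039 ± 0.26, and the sign of that value turned under several settings. Vegfc, the ligand of Flt4 that drives lymph vessel growth, read 12.84, 13.10 and 13.23 on Ta, against 12.55, 12.58 and 12.54 on Ti. All Ta arrays were above the closely grouped Ti arrays. The difference of 0.50 ± 0.12 did not pass (limma adjusted p = 0.0625), and without Ta replicate 1 it was 0.61 and passed (0.0154). With any other single array left out it did not pass (limma adjusted p up to 0.205).

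Pgf, placental growth factor, another ligand of Flt1, had a difference of the opposite sign. It read 12.34, 11.86 and 11.74 on Ta, against 12.56, 12.79 and 12.78 on Ti. All Ta arrays were below all Ti arrays, Ta replicate 1 by the smallest margin. The difference of -0.73 ± 0.17 did not pass (limma adjusted p = 0.0655), and without Ta replicate 1 it was -0.91 and passed (0.0121). With any other single array left out it did not pass (limma adjusted p up to 0.208). Pdgfa, which acts on Pdgfra and recruits mesenchymal cells, read 13.38, 13.51 and 13.66 on Ta, against 13.86, 13.75 and 13.85 on Ti. The difference was -0.31 ± 0.10 (limma adjusted p = 0.102). Its other probes gave -0.26 and -0.22, neither past the test. The first of these shares 38 genomic positions with the probe used, so that pair does not give separate readings. The second, A_44_P1111171, shares no positions with either, and its groups overlapped.

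**Figure D3:**
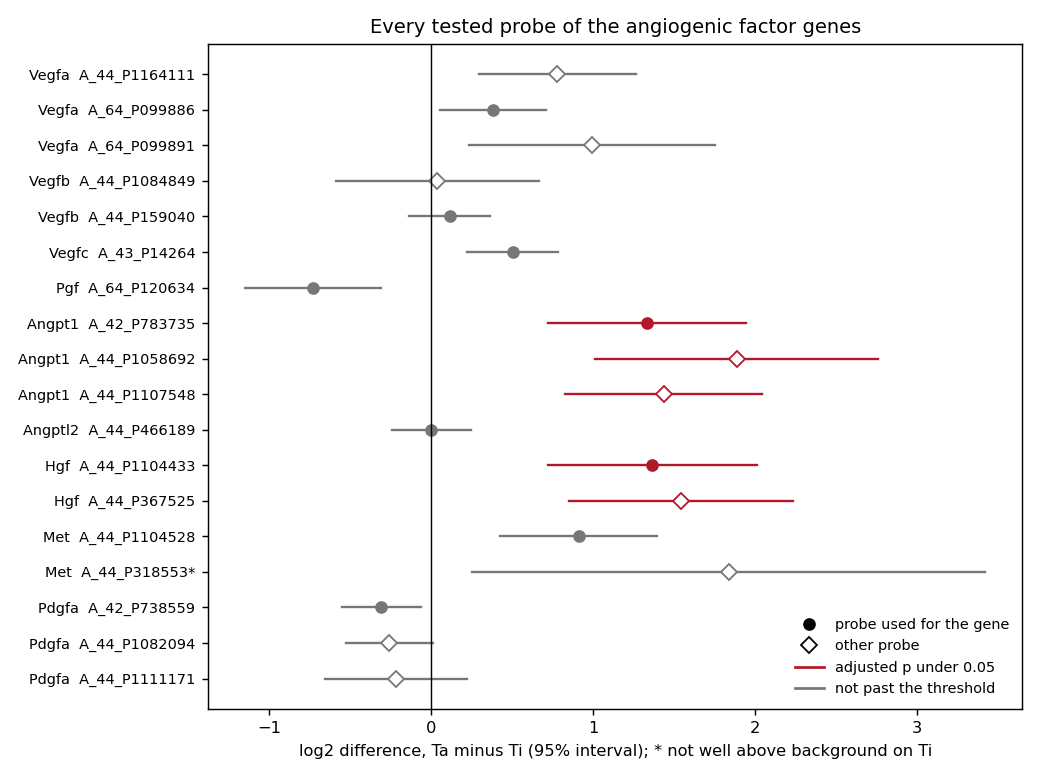
Log2 difference, Ta minus Ti, with its 95% interval for each of the 18 tested probes; filled circles mark the probe used for the gene, open diamonds the other probes, and red an adjusted p under 0.05 in limma by probe. The 3 Angpt1 and 2 Hgf probes are red. The other probes lie between -0.73 for Pgf and 0.99 for Vegfa A_64_P099891, apart from the second Met probe (starred). That probe is drawn at its measured difference although not well above background on Ti, and it passed the filter only through Ta.

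Over the 18 tested probes, 5 rose and 0 fell, where 4.31% of 25756 probes passed in either direction. All that rose were probes of Angpt1 or Hgf, so they do not stand for separate genes. The Ta arrays lay above the Ti arrays in 10 probes, below in 3 and overlapped in 5, and 35.2% of all probes did not overlap. The 10 include the second Met probe, which passed the filter only through Ta. Within a gene with several probes, no member had tested probes of opposite sign with all arrays and the 75th percentile scaling. The Vegfb probes took opposite signs under some alternatives, such as quantile scaling (-0.017 and 0.13).

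The receptors for these ligands did not pass the test. Flt1, bound by VEGF-A, VEGF-B and PlGF, read 7.10, 5.60 and 5.40 on Ta, against 7.12, 6.82 and 7.25 on Ti. Ta replicate 1 sat among the Ti arrays, and the difference was -1.03 ± 0.45 (limma adjusted p = 0.186), with other probes at -0.71 and -0.81. Kdr, the main endothelial VEGF receptor, differed by -0.39 ± 0.22 (0.292), and Flt4, the receptor of VEGF-C, by 0.20 ± 0.15 (0.428). The neuropilin genes stood on opposite sides of 0. Nrp1 read 10.41, 9.84 and 9.56 on Ta, against 10.52, 10.75 and 10.76 on Ti (difference -0.74 ± 0.22, adjusted p = 0.0917 in limma). Nrp2 read 13.72, 13.87 and 13.85 on Ta, against 13.64, 13.51 and 13.54 on Ti (difference 0.25 ± 0.085, 0.116). The angiopoietin receptor gene Tek read 5.51, 5.07 and 5.09 on Ta, against 5.71, 5.62 and 5.89 on Ti. It differed by -0.52 ± 0.15 (adjusted p = 0.0878, limma), and Tie1, its partner, well above background on 2 arrays of each group, by -0.99 ± 0.43 (0.179). Pdgfra differed by -0.12 ± 0.10 (0.492) and Pdgfrb by 0.24 ± 0.11 (0.194), both with overlapping groups. Pdgfrl, a secreted PDGF receptor-like protein without a kinase, fell: it read 9.68, 9.40 and 9.49 on Ta, against 10.96, 10.49 and 10.81 on Ti (difference -1.23 ± 0.15, limma adjusted p = 0.0397).

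In lists of 103 related genes, 90 were tested, of which 9 rose, 5 fell and 76 did not pass, against the 2.67% and 1.48% of all tested genes given above. Their median log2 difference was 0.10. These lists, too, were chosen with earlier results of these data known, so their counts beside those of all genes are descriptions. The count of 14 became 28 without Ta replicate 1 (3209 of all 19570 genes), 21 without Ti replicate 2 (1561 of all) and 0 without any 1 of the other arrays (limma). Among 9 genes of hypoxia-inducible factor (HIF) and its oxygen sensors, 2 rose and 0 fell. Epas1, which encodes HIF-2α, read 14.21, 14.73 and 14.76 on Ta, against 12.90, 13.51 and 12.96 on Ti (difference 1.45 ± 0.22, limma adjusted p = 0.0419). Egln3, an oxygen-dependent prolyl hydroxylase that marks HIF for degradation, read 8.10, 9.29 and 9.06 on Ta, against 6.71, 7.37 and 6.65 on Ti (difference 1.91 ± 0.35, 0.0466). Among 13 genes of the response to low oxygen, the glucose transporter gene Slc2a1 rose by 0.76 ± 0.13 (0.0452), 0 fell and 12 did not pass; Vegfa, itself a textbook HIF target, was not in this list.

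Among 20 other ligands known to act on vessels, 5 rose and 1 fell. Apln, the ligand of the apelin receptor on endothelium, read 11.95, 12.55 and 12.60 on Ta, against 9.75, 10.75 and 9.72 on Ti (difference 2.29 ± 0.33, limma adjusted p = 0.0397). Its second probe gave 2.20. The cytokine gene Il6 rose by 2.14 ± 0.37 (0.0449), with Ta replicate 1 at 7.36 and the other Ta arrays at 8.85 and 8.28, against 5.94, 6.24 and 5.88 on Ti. The EGF receptor ligand genes Tgfa and Ereg rose by 1.71 ± 0.28 (0.0437) and 1.31 ± 0.23 (0.0452), with other Tgfa probes at 1.64 and -0.13, so that gene is uncertain. The 2 remaining called genes, outside the rule for named genes and chosen after their values were seen, were the chemokine gene Cxcl12, which rose by 1.06 ± 0.19 (0.0452), and Igf1, which fell by 1.09 on the log2 scale (SE 0.15, 0.0397). Other Cxcl12 probes gave 1.33 and 0.65, and other Igf1 probes -1.34, -0.47, -0.42 and -0.96.

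Of 11 tested secreted inhibitors of vessel growth, 3 fell, 1 rose and 7 did not pass. Thbs1, which encodes thrombospondin 1, read 11.77, 11.69 and 11.65 on Ta, against 12.40, 12.30 and 12.25 on Ti (difference -0.61 ± 0.082, limma adjusted p = 0.0397). Its other probe gave -0.35. Adamts1, a secreted protease that can bind VEGF-A, fell by 0.62 on the log2 scale (SE 0.074, 0.0397), and Serpinf1, which encodes PEDF, by 0.53 (SE 0.079, 0.0408). Pf4, the platelet chemokine CXCL4, rose by 0.84 ± 0.16 (0.0481). In the list of other angiopoietin-like genes, 0 of 4 passed. Angptl4, a lipase inhibitor induced by fasting and low oxygen, read 13.46, 13.78 and 14.02 on Ta, against 12.12, 13.03 and 11.65 on Ti (difference 1.49 ± 0.36, adjusted p = 0.0656 in limma), and Angptl6 differed by 0.16 ± 0.12 (0.413). Of the other VEGF and PDGF ligands, 0 of 2 passed: Vegfd differed by -0.20 ± 0.19 (0.506) and Pdgfc by -0.047 ± 0.090 (0.761).

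**Figure D4:**
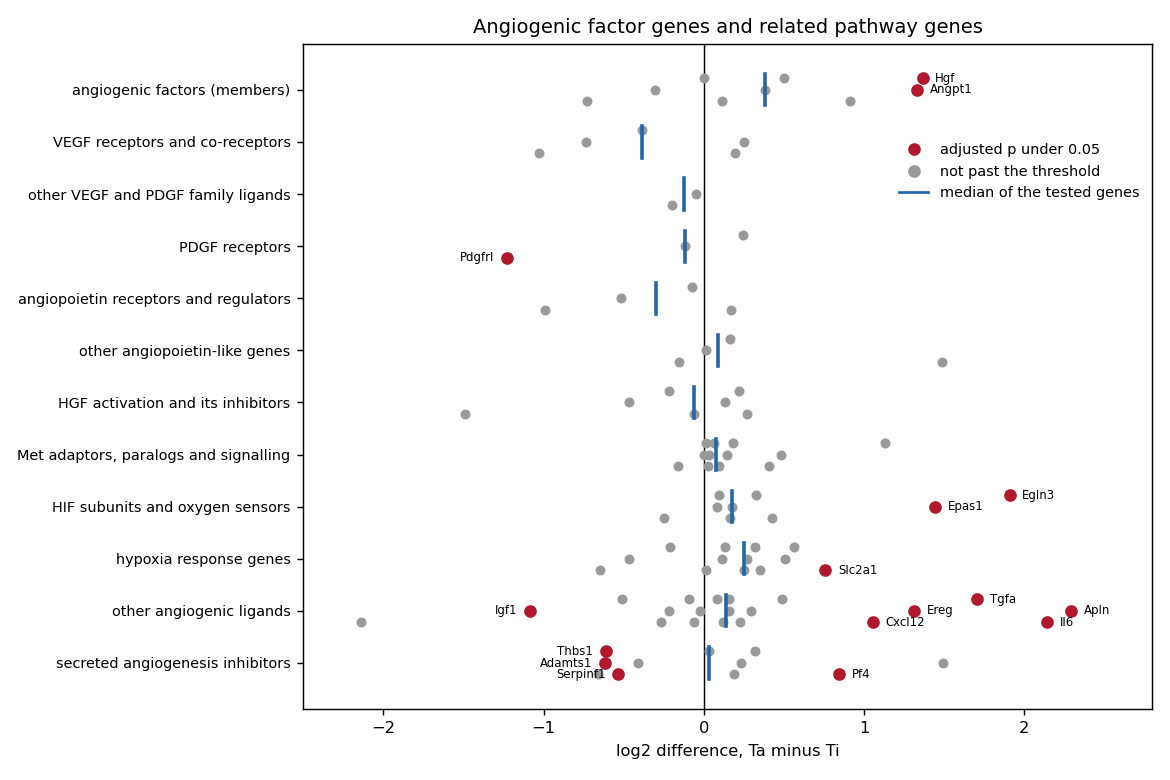
Log2 difference, Ta minus Ti, of each tested member and of the 90 tested genes in 11 related lists; red marks an adjusted p under 0.05 (limma), grey the rest, and the blue line each list's median. Hgf and Angpt1 stand at 1.37 and 1.33, Apln at 2.29 and Il6 at 2.14 are the highest called genes, and Pdgfrl at -1.23 is the lowest.

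Summed marker signal of several other marrow cell types differed between the surfaces, and its part in the results above was not tested. In these bulk cultures, fewer cells of a type and less RNA per cell cannot be told apart. Summed endothelial marker signal lay between 3059 and 3373 on Ta and between 3037 and 3304 on Ti, with Vwf at 50.8% to 53.5% of it on Ta and 47.8% to 53.2% on Ti. Of 12 tested endothelial markers 0 passed (limma, 4 at an unadjusted p under 0.05), 8 were below 0, the median log2 difference was -0.32, and Emcn, Cldn5 and Sox17 never stood well above background. Marrow stromal markers summed to between 202828 and 234756 on Ta and between 177620 and 185321 on Ti. Of 13 tested, 3 were called higher and 0 lower, 8 were above 0 and 5 below, with a median of 0.24. Col1a1 made up 31.4% to 32.9% of that sum on Ta and 35.1% to 43.3% on Ti, and differed by -0.065. Macrophage and monocyte markers summed to 181244, 109340 and 73028 on Ta replicates 1, 2 and 3, against 202316 to 265697 on Ti, with 1 of 19 called lower and a median log2 difference of -1.24. Lyz2 made up 9.3% to 36.3% of that sum on Ta and 41.9% to 47.3% on Ti. It differed by -2.38, and its other probes by -0.51 and -2.85. Neutrophil markers summed to between 16966 and 28150 on Ta and between 1588 and 8860 on Ti (2 of 5 higher, median 1.68), with Lcn2 at 97.7% to 98.1% of the sum on Ta and 91.6% to 97.8% on Ti, although S100a9, Elane, Cxcr2 and Ngp never stood well above background. Mast cell markers summed to between 864 and 955 on Ta and between 1405 and 2301 on Ti (5 of 8 lower, median -2.05). Mcpt8 made up 19% to 30% of that sum on Ta and 48% to 65% on Ti, and differed by -2.16, with its other probe at -0.41. Megakaryocyte and platelet markers summed to between 44610 and 47493 on Ta and between 21408 and 32317 on Ti. Pf4 made up 96.9% to 98.4% of that sum on Ta and 98.4% to 98.6% on Ti; 2 of the 7 tested markers, Pf4 and Selp, passed as higher, 4 were below 0, and the median was -0.11. Pericyte and smooth muscle markers summed to between 20865 and 22009 on Ta and between 25228 and 27720 on Ti (1 of 10 higher, 1 lower), with 6 of 10 above 0, a median of 0.083 and Tagln at 67.8% to 74.7% of the sum on Ta and 62.7% to 69.8% on Ti. Lymphoid markers summed to between 1429 and 2914 on Ta and between 3240 and 5074 on Ti (0 of 2 passed, median -0.70). Ptprc alone made up 96.01% to 98.45% of that sum on Ta and 98.64% to 99.06% on Ti, and 6 of the 9 listed markers never stood well above background. Erythroid markers summed to between 768 and 932 on Ta and between 691 and 729 on Ti (0 of 2, median 0.24). Within Ta, replicate 1 had the highest macrophage, lymphoid and endothelial sums. It had the lowest neutrophil, stromal, megakaryocyte, mast cell and erythroid sums, and a middle pericyte sum. Any link of these sums to the members was not tested.

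The genes whose pattern over the 6 arrays was most like that of Angpt1, by the root mean square gap between log2 values centred on each gene's mean, were Ccl7 (0.054), Slc25a37 (0.073) and Kcnt1 (0.074). Ccl7 read 14.62, 15.39 and 15.38 on Ta, against 13.77, 14.14 and 13.71 on Ti. For Hgf they were Parm1 (0.075), Erp27 (0.079) and Ccnjl (0.084), among them Parm1 at 8.42, 9.19 and 9.12 on Ta, against 7.17, 7.78 and 7.50 on Ti. These 6 genes share with both members a low Ta replicate 1, and they are the closest by construction, so their likeness was not tested.

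Promoters of 8 of the 10 genes were in the RefSeq table of rat build GRCr8, each reaching 250 bases before and 50 bases into the gene, with 2 starts for Vegfa; Angpt1 and Angpt2 were not in it. The core of the HIF binding site, ACGTG or GCGTG on either strand, was found in 2 of the 8, Vegfb at position -68 and Pgf at position -154 from the start, and in 41.64% of 33469 promoters of the same length. The AP-1 motif TGANTCA, its own reverse complement, was in 0 of the 8 and in 7.33% of all. A match of letters in this window is a description, and says nothing of binding.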

How the data were processed

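The deposited scanner files hold spot intensities, which, per the file headers, Agilent Feature Extraction 12.0.3.1 background-subtracted and detrended, leaving arrays unscaled. Version 12.0 and limma are named in the submitters' processing notes. Intensities of Ta replicate 2 and of Ti replicate 3 carry at most 3 significant digits. The series value table equals the processed signal in 100% of values and was not used further.

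Here, log2 processed signals were reduced by each array's 75th percentile over non-control spots, with the mean percentile added back. Outlier-flagged spots (0.58% to 0.84% of an array) were left out, spots of 1 probe averaged, and probes well above background on at least 3 of 6 arrays kept (25764). Each gene was represented by its brightest probe. RefSeq GRCr8 named 31230 of 45598 probes, and the file's name was kept for 14368. Two-sided limma tests (version 3.58.1, lmFit then eBayes, R 4.3.3) ran over all genes, and again over all probes, adjusted by Benjamini-Hochberg and called under 0.05. SE is limma's moderated standard error. No set test was run, and the number of arrays limits precision. On simulated data for this comparison (19570 genes), 61% of genes changed by 1 and 86% of those changed by 2 on the log2 scale were recovered, with 4 false among 151 calls. These rates describe the simulated data and are not rates of the measured arrays.

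Members and lists were chosen with earlier results of these data known. Named genes are all members, their receptors, up to 4 called genes per list with the largest change, up to 2 by size in a list with none, and the 3 nearest patterns of each called member. Alternatives covered scaling, background correction, filters, blocks, variance model, weights, probe rule, rounding and leaving out each array. Replicate numbers were checked for pairing and were not taken as pairs, although a check on so few arrays cannot exclude pairing.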

Additional observations from a re-analysis of the deposited data

How the results depend on the processing

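All 9 tested members kept the sign of their difference under the 18 alternatives except Angptl2, which was -0.032 with median scaling and between -0.038 and 0.083 over single arrays left out. The dim Vegfb probe was -0.017 with quantile scaling, -0.47 with array weights, -0.056 with slide row as a block and between -0.14 and 0.34 over single arrays left out. Quantile and median scaling left 1 member called, with Hgf at 1.38 and 1.33 (adjusted p = 0.0507 and 0.0508, limma). No filter on dim probes left Angpt1 at 1.33 and Hgf at 1.37 but called 0 members, 0 listed genes and 0 of 34859 genes (5814 at an unadjusted p under 0.05), with more genes tested (adjusted p = 0.127 and 0.132). With slide row as a block the differences were 1.40 and 1.60, and 0 members, 0 listed genes and 0 genes were called (3829 unadjusted); Ti replicates 2 and 3 do not inform the difference there. With normexp background correction limma called 5 members, 27 listed genes and 2595 genes, with trend and robust settings 5 members and 2087 genes, and with array weights 8 members, 56 listed genes and 10159 genes. The added members were Vegfc, Pgf and Met, and with array weights also Vegfa, Vegfb and Pdgfa. These weights were 7.35 for Ta replicate 2, 2.74 for Ti replicate 3 and 0.32 to 0.73 for the others. Over single arrays left out, Angpt1 ranged from 1.18 to 1.59, Hgf from 1.18 to 1.64, the members called from 0 to 5, the listed genes from 0 to 28 and all genes from 0 to 3209. Angpt1 passed under 11 of the 18 alternatives and Hgf under 9. Detected-probe scaling, the mean of probes, rounding and the filter for all arrays gave counts of all genes, listed genes and members within 1.5 times, the last with Met called (adjusted p = 0.0447, limma). Called or not, values moved by over 1.5 times for Vegfa (0.72) and Met (1.37) with the mean of probes, for Vegfb with array weights (0.21), slide row as a block (0.059) and without Ti replicate 2 (0.18) or 3 (0.024), for the dim Angpt1 and Met probes with normexp (0.61 and 0.34), for that Met probe with slide row as a block (2.77), and for Pdgfa probe A_44_P1111171 with array weights (-0.34), slide row as a block (-0.52) and without Ti replicate 1 (-0.067) or 2 (-0.41). Why the other counts moved was not tested.

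Replicate numbers are shared by both groups in the labels, but deviations of same-numbered arrays from their group means correlated at 0.064, 0.13 and -0.18, so the numbers were not taken as pairs. With a replicate block the differences of Angpt1 and Hgf stayed at 1.33 and 1.37 (adjusted p = 0.0803 and 0.0703, limma), and 0 members, 0 listed genes and 8 genes were called (5094 at an unadjusted p under 0.05). Dimness limits Angpt2 and 1 Met probe, which have no measured level on some or all arrays.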
